A study of Homo sapiens with 4 samples.

Results

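The response of Toledo cells to the bromodomain inhibitor JQ1 was described from 2 of the 4 samples of the study, Toledo given JQ1 and Toledo given the vehicle DMSO. Both samples were chosen by their labels, and no measured value entered the choice. Of the 41507 genes in the deposited gene table, 9646 had a mean of at least 1 RPKM (reads per kilobase of gene, scaled to library depth) in DMSO or in JQ1, and these genes are described here. The study asked how inhibition of BET proteins alters gene expression in diffuse large B-cell lymphoma (DLBCL), a disease whose cells can spread by amoeboid movement. Toledo is an established DLBCL line, labelled as B lymphocytes, and a second DLBCL line, SU-DHL-5, was treated in the same way. JQ1 was given at 1 µM, for 6 h by the labels and for 8 h by the legend of the study. Each line and condition had 1 sample with 2 libraries, and what separates the libraries is not given in the sources used here.

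BET proteins, BRD2 and BRD3 among them, bind acetylated lysines of histones through their bromodomains and help RNA polymerase II to pass from the promoter into the gene. Part of this help runs through P-TEFb, a kinase that releases paused polymerase and that HEXIM1 and the 7SK RNA hold inactive. JQ1 fills the acetyl-lysine pocket and displaces BET proteins from chromatin, and in B cells many genes of cell identity lie near enhancers that BET proteins occupy densely.

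The levels of marker genes were those of a B-cell line. All 8 B-cell markers were above 1 RPKM, and their summed level was 978 and 920.3 RPKM under DMSO, against 623 and 641 under JQ1. The most abundant of them, CD79B, a signalling chain of the antigen receptor, had 474 and 413 RPKM without the drug and 359 and 371 with it. None of 10 T-cell markers reached 1 RPKM, and CD2, CD28, CD3E, CD5, CD7 and TRAT1 were at 0 in all 4 libraries. Their summed level was 0.419 and 0.227 RPKM with DMSO and 0.0366 and 0.0369 with JQ1, with CD247 the largest contributor in DMSO library 1. Of 10 myeloid markers none reached 1 RPKM and 5 (ELANE, FCN1, MPO, S100A8 and S100A9) were at 0, with CD14 the most abundant at 0.0313 and 0.170 RPKM without the drug and 0.0681 and 0.103 with it, and sums of 0.118 and 0.298 RPKM and of 0.201 and 0.103 RPKM. The 7 erythroid and megakaryocyte markers were below 1 RPKM as well, 5 of them (ALAS2, GP9, PF4 and PPBP among them) at 0, with sums of 0.262 and 0.0763 RPKM under DMSO, against 0.0553 and 0 under JQ1, most of it from KLF1 in DMSO.

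Outside the B lineage, 2 markers reached 1 RPKM in Toledo. PRF1, which encodes the pore-forming protein of cytotoxic cells, went from 1.07 and 0.948 RPKM to 0.121 and 0, while GNLY, KLRF1, NCAM1 and NCR1 of the 7 NK-cell markers were at 0 and the sums of the list were 1.14 and 1.09 RPKM under DMSO, against 0.121 and 0.0173 under JQ1. COL1A1, a collagen chain, went from 2.29 and 2.72 RPKM to 0.228 and 0.397, while 8 of the 10 epithelial and stromal markers (CDH1, CDH5, COL3A1, DCN, EPCAM, KRT18, KRT8 and VWF) were at 0 and the list summed to 2.32 and 2.76 RPKM under DMSO, against 0.236 and 0.422 under JQ1. Of 7 plasma-cell markers, SDC1 (0.195 and 0.163 RPKM under DMSO) and PRDM1 (0.215 and 0.320) were below 1 RPKM. The other 5 were above it, and the list summed to 930.1 and 929.8 RPKM under DMSO, against 390.0 and 386 under JQ1. Most of this came from IGJ (named JCHAIN in RefSeq), the joining chain of secreted IgM and IgA, at 720.4 and 732 RPKM without the drug and 271 and 264 with it. IRF4, another of the 5, was higher (44.2 and 53.3 to 56.9 and 60.1 RPKM, 0.26). In RNA from a whole culture, fewer cells of a kind and less RNA per cell cannot be told apart, and this holds for every level given here.

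The 2 libraries of a condition were averaged, and ratios were taken as log2 of mean JQ1 over mean DMSO after adding 0.1 RPKM to each, which damps the ratios of low genes. A gene was called higher or lower with JQ1 when both JQ1 libraries lay outside both DMSO libraries on the same side. With 1 sample per condition there was no replicate check of any difference and no test was made.

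JQ1 shifted the Toledo transcriptome in both directions, and the large changes were mostly falls. By this rule 2844 genes (29.5% of 9646) were higher and 4207 genes (43.6%) lower, and the libraries overlapped for 2595. With 2 libraries on each side, an unchanged gene can meet the rule by the order of its libraries alone. These shares are therefore not shares of genes that responded. A change of at least 2-fold was far rarer, with 186 genes higher (1.93%) and 773 lower (8.01%). Past a log2 ratio of 2 in size there were 38 genes higher and 216 lower, and past 3 there were 13 and 58. The median log2 ratio of all genes was −0.07, and 6092 of the 7051 called genes had moved by less than 2-fold. Among called genes 40.3% were higher, and this share was 50.1% after scaling the libraries to a common median ratio and 50.2% after centring each library on transcript length. Both corrections place the median near 0 by construction, so the balance of small rises and falls cannot be told from these values. Falls of 2-fold outnumbered rises of 2-fold under each, with 231 higher and 702 lower after scaling and 242 and 684 after centring.

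The 2-fold changes were larger than the spread between libraries of the same sample. DMSO library 2 over DMSO library 1 passed 2-fold for 10 genes upward and 11 downward, and the JQ1 libraries for 7 and 16. Any JQ1 library over any DMSO library passed it for 184 to 266 genes upward and 754 to 870 downward. Of the 2-fold genes, 156 of those higher and 707 of those lower had at least 100 reads in a condition. The genes that were 2-fold higher started from a median of 1.59 RPKM in DMSO and those 2-fold lower from 4.20, beside 9.08 for all genes. Of the 773 falls 335 ended below 1 RPKM with JQ1, and of the 186 rises 65 began below 1 RPKM in DMSO, so these genes passed the filter through 1 condition only and the direction of their means was bound by it. Among the 8978 genes with at least 1 RPKM in each condition, a limit chosen after seeing the data, 121 were 2-fold higher and 438 2-fold lower. The bound holds for every gene named below that lies under 1 RPKM in 1 condition. Counts and medians of the gene lists below include such genes unless stated otherwise. By level, 23.9% of genes under 2 RPKM in DMSO were 2-fold lower, against 1.61% of genes over 100 RPKM. Almost all of these genes encode proteins, 9537 of the 9563 that were found in RefSeq.

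**Figure D1:**
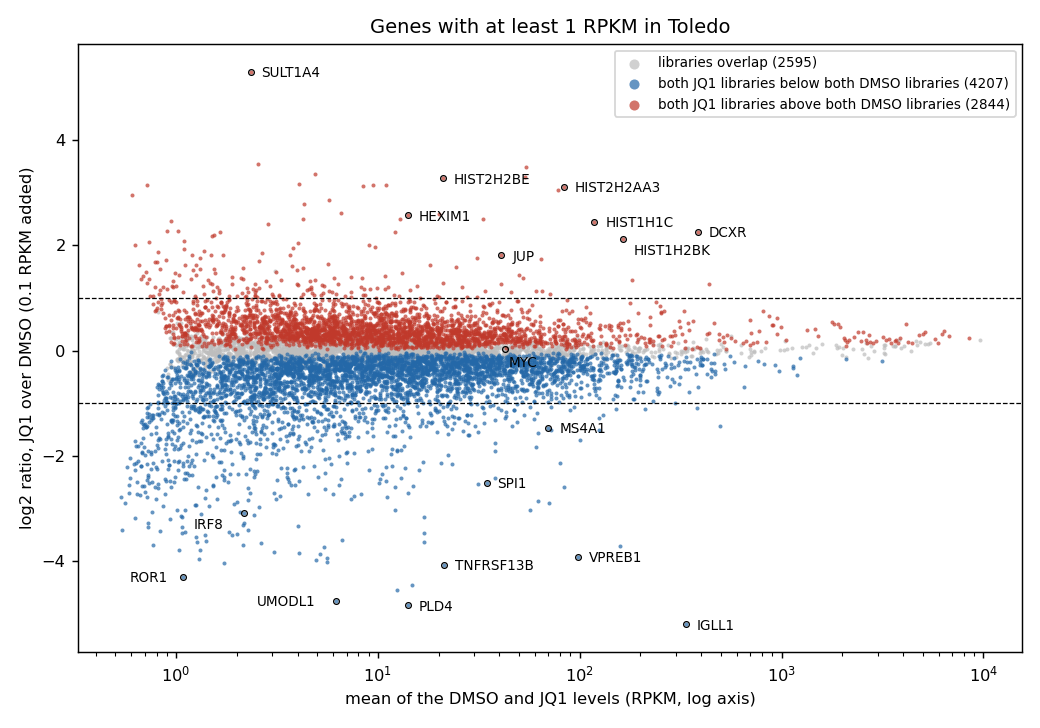
Log2 ratio of JQ1 over DMSO (vertical axis) against the mean of the DMSO and JQ1 levels in RPKM (horizontal log axis) for the 9646 genes of Toledo, 1 point per gene, colored by whether both JQ1 libraries lay above (2844), below (4207) or overlapped (2595) the DMSO libraries. Dashed lines mark 2-fold changes, IGLL1 has the lowest ratio, −5.21, and DCXR was labelled after its values were seen.

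The highest levels in Toledo belonged to ribosomal protein genes. RPS18 had 10010.00 and 7821 RPKM without the drug and 10757 and 9702 with it, and its libraries overlapped, though it was called higher after centring on length (0.23). RPL39 (8587 and 6918 to 9229 and 9026 RPKM), RPS27 (6628 and 5637 to 7384 and 7443 RPKM), RPLP1 (6143 and 5039 to 6852 and 7594 RPKM) and RPS4X (5839.9 and 5262 to 6857 and 6904 RPKM) were next and were called higher, at log2 ratios from 0.24 to 0.37. For each of these 5 genes DMSO library 2 was the lowest of the 4 libraries. Ribosomal protein genes have many near-identical pseudogenes, so the reads of each are uncertain.

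Transcript length was examined because the DMSO libraries differed along it. From the shortest to the longest of 10 classes of genes, the median log2 ratio of DMSO library 2 over library 1 went from −0.15 to 0.31, and that of JQ1 library 2 over library 1 from 0.00 to −0.13. The Spearman correlation with length over the genes, none of which is an independent replicate of another, was 0.61 for the DMSO libraries and −0.26 for the JQ1 libraries. For mean JQ1 over mean DMSO it was 0.12, and after each library was centred on its running median over genes of like length it was −0.00497. The share of genes called lower fell from 51.3% in the shortest class to 27.7% in the longest, and the share called higher went from 26.1% to 32.6%. After centring, which evens rises and falls by construction, 42.4% and 41.7% of the shortest class were higher and lower, and 39.2% and 39.1% of the longest. Of the called genes, 2789 higher and 3589 lower were called alike after centring, 61 went from lower to higher and 0 from higher to lower. Among 2-fold genes, 182 of 186 higher and 678 of 773 lower were again past 2-fold. Most 2-fold genes were kept, while the call of a small change often depended on the correction, which also moved the median of all genes up.

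**Figure D2:**
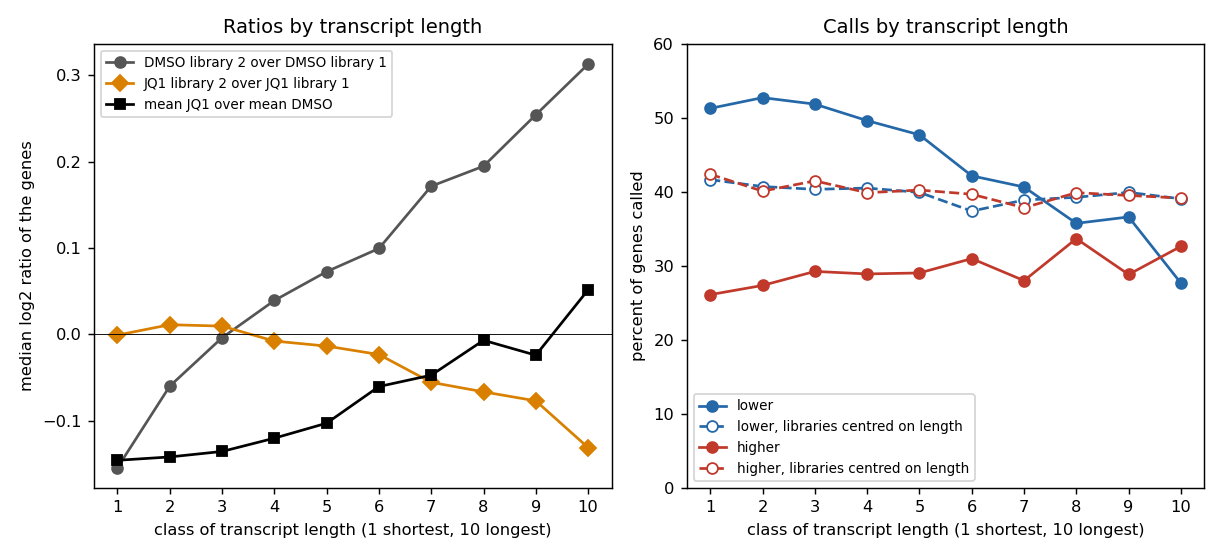
The left panel shows the median log2 ratio of DMSO library 2 over library 1, of JQ1 library 2 over library 1 and of mean JQ1 over mean DMSO in 10 classes of transcript length, 1 being the shortest, and the right panel shows the percent of genes called lower (blue) or higher (red) in each class, with open symbols after centring on length. The DMSO ratio climbs from −0.15 to 0.31 and the centred shares stay near 40% in every class, from 37.4% to 42.4%.

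The deepest falls in Toledo included genes of B-cell development and of the B-cell surface. IGLL1 (chromosome 22, 23573125 to 23580308), a part of the surrogate light chain that precursor B cells pair with the heavy chain, went from 695 and 612 RPKM with DMSO to 15.7 and 19.4 with JQ1 (log2 ratio −5.21). VPREB1 (chromosome 22, 22244788 to 22245514), the other part of that surrogate chain, went from 186 and 183 to 11.5 and 12.7 RPKM (−3.92). PLD4 (chromosome 14, 104924850 to 104937649), an endolysosomal exonuclease that degrades single-stranded nucleic acids, went from 27.4 and 27.0 to 0.655 and 1.04 RPKM (−4.85). In all of them the lower DMSO library was many times above the higher JQ1 library. Receptors of the ligands BAFF and APRIL followed. TNFRSF17, known as BCMA, went from 26.2 and 21.9 to 0.804 and 1.06 RPKM (−4.55). TNFRSF13B, known as TACI, went from 41.2 and 39.5 to 2.08 and 2.51 RPKM (−4.08). ROR1, a WNT5A receptor and an antibody target in B-cell malignancies, went from 1.73 and 2.58 to 0.00933 and 0.0188 RPKM (−4.31), close to its disappearance at this depth.

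The other 6 of the 12 genes with the deepest falls have diverse roles. FBP1, a rate-limiting enzyme of gluconeogenesis, went from 29.6 and 27.1 to 1.06 and 1.34 RPKM (−4.45). ACSL5, which activates long-chain fatty acids, went from 9.05 and 9.64 to 0.443 and 0.546 RPKM (−3.99). PLEK, a substrate of protein kinase C in blood cells, and LSP1, an actin-binding protein of leukocytes, went from 3.11 and 3.56 to 0.129 and 0.0869 RPKM (−4.05) and from 10.5 and 10.6 to 0.522 and 0.669 RPKM (−3.94). Both bind or reshape the membrane and actin skeleton. UMODL1 went from 12.1 and 11.98 to 0.279 and 0.416 RPKM (−4.76) and BAHCC1, a chromatin reader, from 10.0 and 11.3 to 0.611 and 0.515 RPKM (−4.02). Of the 12 genes, IGLL1, UMODL1, FBP1, ROR1, TNFRSF13B, VPREB1 and BAHCC1 were below 1 RPKM in every library of SU-DHL-5, so that their fall could be seen in Toledo alone.

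**Figure D3:**
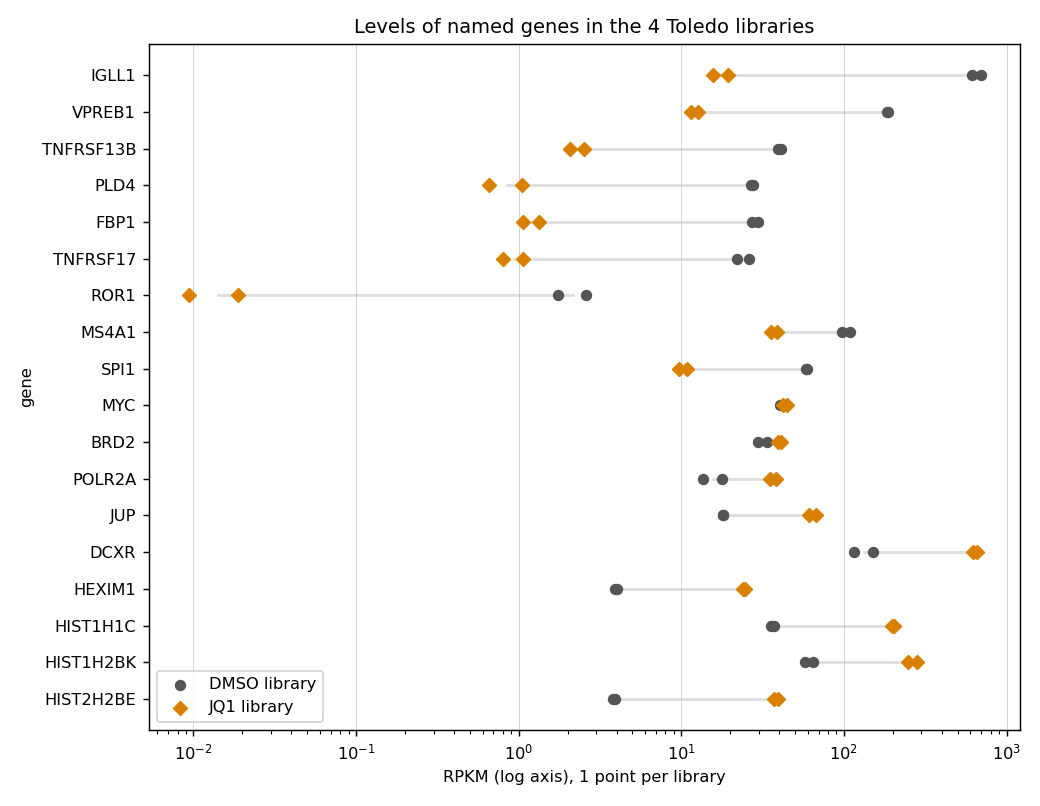
Levels of named genes in the 4 Toledo libraries in RPKM on a log axis, with a circle per DMSO library and a diamond per JQ1 library. IGLL1 lies at 695 and 612 RPKM with DMSO and 15.7 and 19.4 with JQ1, HIST2H2BE at 3.79 and 3.91 and at 39.5 and 37.1, the symbols of MYC overlap, and DCXR was added after its values were seen.

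The promoters of the surrogate light chain genes and of PLD4 are shown because these genes were among the deepest falls. The sequences are the 250 bases before the RefSeq transcript start on GRCh38.p14, for IGLL1 at chr22:23580291-23580540 on the minus strand, for VPREB1 at chr22:22244536-22244785 on the plus strand and for PLD4 at chr14:104924629-104924878 on the plus strand. They were searched on both strands for the TATA box TATAAA, the box named after its letters CCAAT, the GC box GGGCGG, the E-box CACGTG, the octamer ATTTGCAT and an ETS motif of the kind SPI1 binds, GAGGAAGT, and capitals mark a match on either strand.
IGLL1: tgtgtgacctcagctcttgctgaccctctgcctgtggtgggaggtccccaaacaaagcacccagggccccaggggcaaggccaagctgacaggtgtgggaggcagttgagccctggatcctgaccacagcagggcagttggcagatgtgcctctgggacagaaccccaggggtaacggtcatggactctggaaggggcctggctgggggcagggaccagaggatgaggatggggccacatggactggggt
VPREB1: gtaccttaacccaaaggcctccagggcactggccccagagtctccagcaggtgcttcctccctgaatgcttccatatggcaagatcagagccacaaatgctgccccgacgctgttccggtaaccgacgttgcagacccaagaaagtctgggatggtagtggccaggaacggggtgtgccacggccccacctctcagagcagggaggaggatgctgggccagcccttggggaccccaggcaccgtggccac
PLD4: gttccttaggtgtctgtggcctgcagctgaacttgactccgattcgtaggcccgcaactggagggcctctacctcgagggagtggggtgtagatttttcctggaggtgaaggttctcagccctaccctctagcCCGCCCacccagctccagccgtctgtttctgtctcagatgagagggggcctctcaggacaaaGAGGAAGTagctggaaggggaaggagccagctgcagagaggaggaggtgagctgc
The promoters of IGLL1 and VPREB1 held none of these letters, and that of PLD4 held GAGGAAGT 55 to 48 bases before the start and GGGCGG on the other strand 117 to 112 bases before it, with no overlap between motifs. Of all 35116 promoters of this length, 10.7% held TATAAA, 32.0% CCAAT, 42.6% GGGCGG, 6.35% CACGTG, 1.63% ATTTGCAT and 2.17% GAGGAAGT. A promoter was found for 593 of the 773 genes that were 2-fold lower, and of these 3.04% held GAGGAAGT, 26.1% CCAAT and 59.4% GGGCGG. The same shares were 2.11%, 37.1% and 69.3% for the 8042 genes with a promoter among the 9646.

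Histone genes made up much of the opposite end of the response. Replication-dependent histone genes lie in 3 clusters, encode the bulk histones of new chromatin, and make mRNAs that mostly end in a stem-loop in place of a poly(A) tail. The libraries were made with a kit for mRNA, and whether it captured transcripts without a tail was not tested. Of 89 such genes, 39 had at least 1 RPKM in Toledo, and 36 were called higher (92.3%, against 29.5% of all genes), 35 of them by at least 2-fold (against 1.93% of all genes), and 0 lower. The 17 of them with a mean below 1 RPKM in DMSO passed the filter only through JQ1 and were bound to have a higher mean there. Among the other 22, a limit chosen after seeing the data, 20 were higher and 0 lower, with a median log2 ratio of 2.61. Over the 39 the median was 2.45, beside −0.07 for all genes and 1.67 for the list with no filter, and the 35 were 18.8% of the 186 genes that were 2-fold higher. HIST1H4C, HIST1H4J and HIST1H4K overlapped, and 27 of the 89 genes were at 0 in all 4 libraries. Together the 39 genes took 0.0159% and 0.0142% of mapped reads in DMSO and 0.0899% and 0.0889% in JQ1.

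By cluster and kind the counts include genes bound to be higher by the filter. In the large cluster of chromosome 6, 24 of 27 genes were higher with a median log2 ratio of 2.45, in the HIST2 cluster of chromosome 1 10 of 10 with a median of 3.09, and in the HIST3 cluster of chromosome 1 2 of 2. By kind, all 3 genes of histone H1, 10 of H2A, 12 of H2B and 7 of H3 were higher, and 4 of 7 of H4. With at least 1 RPKM in DMSO the higher genes were 1 of 1 of H1, 9 of 9 of H2A, 6 of 6 of H2B, 1 of 1 of H3 and 3 of 5 of H4, so for H1 and H3 a single gene carries the rise. HIST2H2BE (chromosome 1, 149884460 to 149886682), a gene of histone H2B whose annotated transcript is longer than that of most histone genes, went from 3.79 and 3.91 RPKM with DMSO to 39.5 and 37.1 with JQ1 (3.28). The most abundant, HIST1H2BK, also of H2B, went from 64.7 and 57.5 to 249 and 283 RPKM (2.12). HIST1H1C, of linker histone H1, went from 37.3 and 35.6 to 202 and 198 RPKM (2.45). Among the genes with the steepest rises were also HIST1H3D (0.798 and 0.669 to 8.68 and 6.19 RPKM) and HIST1H3H (2.51 and 1.17 to 17.4 and 16.8 RPKM) of H3. HIST1H2AE (1.10 and 2.18 to 16.4 and 14.2 RPKM) of H2A and HIST1H2BO (0.969 and 1.05 to 7.11 and 8.09 RPKM) and HIST2H2BF (0.552 and 0.0751 to 5.55 and 3.97 RPKM) of H2B were among them too. HIST2H2BF in particular was near 0 in DMSO library 2.

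Some of the largest rises belong to pairs of near-identical genes, and their split is uncertain. HIST2H4A and HIST2H4B, of H4, summed to 19.0 and 18.2 RPKM with DMSO and 205 and 190.1 with JQ1 (3.40), and HIST2H2AA3 and HIST2H2AA4, of H2A, to 38.2 and 29.5 and to 297 and 282 (3.09). For these the rise of the sum lay between those of the copies, from 3.30 to 3.50 for the first pair and from 3.06 to 3.11 for the second. SULT1A4, a sulfotransferase gene with the largest ratio of all (5.31), went from 0.0405 and 0 to 4.53 and 4.79 RPKM, while its copy SULT1A3 went from 3.92 and 3.60 to 0.395 and 0.0885 RPKM. The sum of the pair went from 3.96 and 3.60 to 4.93 and 4.88 RPKM (0.37), so the copies moved in opposite directions while their sum changed little, and the cause was not tested.

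Promoters of HEXIM1, the only gene besides SULT1A4 that is not a histone gene among the 12 steepest rises of genes matched to RefSeq as protein-coding, and of 2 histone genes are shown as members of the genes that moved up together. They are given in the same way from RefSeq on GRCh38.p14, for HEXIM1 at chr17:45148225-45148474 on the plus strand, for HIST2H2BE (H2BC21 in RefSeq) at chr1:149886683-149886932 on the minus strand and for HIST1H3H (H3C10) at chr6:27809801-27810050 on the plus strand, with the same 6 motifs in capitals on either strand.
HEXIM1: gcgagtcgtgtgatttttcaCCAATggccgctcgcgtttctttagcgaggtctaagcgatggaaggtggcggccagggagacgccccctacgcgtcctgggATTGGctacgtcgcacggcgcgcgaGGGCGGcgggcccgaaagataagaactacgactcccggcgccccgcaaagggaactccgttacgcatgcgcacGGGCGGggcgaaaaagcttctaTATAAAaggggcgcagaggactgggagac
HIST2H2BE: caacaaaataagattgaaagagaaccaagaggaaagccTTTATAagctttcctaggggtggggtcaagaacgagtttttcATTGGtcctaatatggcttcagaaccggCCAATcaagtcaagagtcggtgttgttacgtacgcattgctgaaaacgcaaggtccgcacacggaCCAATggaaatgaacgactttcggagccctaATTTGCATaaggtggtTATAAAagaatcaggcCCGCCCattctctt
HIST1H3H: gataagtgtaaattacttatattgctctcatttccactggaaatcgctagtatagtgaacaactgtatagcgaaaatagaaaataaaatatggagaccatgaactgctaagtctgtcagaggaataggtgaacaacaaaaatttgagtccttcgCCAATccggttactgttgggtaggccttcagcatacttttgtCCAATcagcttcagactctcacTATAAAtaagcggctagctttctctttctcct
All 3 hold TATAAA close to the start, from base 29 to 24 before it in HEXIM1, from 30 to 25 in HIST2H2BE and from 32 to 27 in HIST1H3H, and CCAAT on 1 strand or the other. HIST2H2BE also holds ATTTGCAT from base 46 to 39 before the start. Among the 34 histone genes with a promoter, 67.7% held TATAAA, 85.3% CCAAT and 38.2% ATTTGCAT. Among the 122 other genes with a promoter that were 2-fold higher, these shares were 8.20%, 43.4% and 3.28%. For the 8042 genes with a promoter and at least 1 RPKM they were 4.96%, 37.1% and 1.38%. A match describes the letters of the window and is not evidence of a bound factor.

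BRD2 and BRD3, whose products JQ1 binds, and most genes of P-TEFb moved by less than 2-fold, with HEXIM1 and HEXIM2 as exceptions. BRD2 went from 29.5 and 33.5 RPKM with DMSO to 41.1 and 39.1 with JQ1 (0.35), and BRD3 from 3.54 and 4.04 to 5.04 and 4.70 RPKM (0.35). Of the 7 genes of P-TEFb and its 7SK complex, 3 were higher and 2 lower (42.9% and 28.6%, against 29.5% and 43.6% of all genes), and the median of 0.23 ran from 0.08 to 0.39 with single libraries left out. HEXIM1 (chromosome 17, 45147317 to 45152101) rose 2-fold and more in every comparison of libraries (2.57), while its relative HEXIM2 went from 2.52 and 3.11 to 1.20 and 1.09 RPKM (−1.22). CDK9, the kinase of P-TEFb, went from 29.7 and 30.9 to 40.2 and 43.0 RPKM (0.45), its partner CCNT1 from 9.20 and 11.7 to 12.7 and 12.04 RPKM (0.24), and LARP7, which binds the 7SK RNA, from 19.5 and 20.8 to 17.7 and 16.9 RPKM (−0.22). In a list of 9 genes described as markers of BET inhibition, 7 had at least 1 RPKM, with 5 higher (71.4%) and 1 lower (14.3%) and a median of 2.26. MYC, also of this list, overlapped. Of the 5, ZCCHC24 and HIST2H2BF passed the filter only through JQ1. The 5 include histone genes counted above, HIST2H2BF among them, so the list is not separate from theirs. With genes of at least 5 RPKM only the median was 2.35. The lower gene was CD180, a toll-like receptor relative of B cells, which went from 1.35 and 1.29 to 0.147 and 0.0659 RPKM (−2.78).

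RNA polymerase II and its elongation factors had large changes of some members in both directions. Of 52 genes, 23 were higher (44.2%, beside 29.5% of all genes) and 18 lower (34.6%, beside 43.6%), with a median of 0.04. This median was 0.12 after scaling and after centring on length, 0.09 without DMSO library 2 and 0.02 without DMSO library 1. POLR2A, the largest subunit of the polymerase, went from 13.6 and 17.8 RPKM with DMSO to 38.0 and 35.1 with JQ1 (1.21), and the small subunit POLR2L from 181 and 148 to 311 and 309.8 RPKM (0.92). ELL2, a factor of the super elongation complex, went from 0.703 and 0.765 to 2.41 and 2.25 RPKM (1.55), having passed the filter only through JQ1, and RTF1, which works with the PAF complex, from 16.4 and 21.1 to 30.8 and 31.1 RPKM (0.72). These members rose, and others fell. MED24 of the Mediator tail went from 19.3 and 19.96 to 4.92 and 5.53 RPKM (−1.89), MED12 of its kinase module from 11.6 and 13.7 to 6.50 and 6.95 RPKM (−0.90), the histone chaperone SSRP1 from 199 and 214 to 93.5 and 97.1 RPKM (−1.11) and NELFCD, of a complex that holds polymerase paused, from 78.7 and 77.5 to 43.3 and 43.2 RPKM (−0.85).

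MYC, a transcription factor of growth, had overlapping libraries in Toledo. The study itself reported lower MYC mRNA by quantitative PCR, and lower protein, in JQ1-treated lines that included Toledo. Why the RPKM values differ from that was not tested. The level of MYC was 40.4 and 44.4 RPKM without the drug and 44.6 and 42.1 with it (0.03), and the sign of this ratio changed with the library left out, from −0.03 to 0.10. After centring on length MYC was called higher, at 0.17, so whether it was called depends on the correction. Of 10 genes of the MYC and MAX network, 4 were higher (40%, against 29.5% of all genes), 1 was lower (10%, against 43.6%) and 5 overlapped, and the median of 0.12 ran from 0.02 to 0.23 with single libraries left out. The genes that were higher were MXD4 (8.57 and 8.26 to 13.0 and 14.3 RPKM), MXD1 (1.27 and 1.25 to 2.41 and 1.85 RPKM) and MXD3 (5.67 and 5.63 to 6.94 and 8.55 RPKM), which compete with MYC for MAX, and MLXIP (4.12 and 5.12 to 8.02 and 6.42 RPKM), a glucose sensor. MLX, the partner of MLXIP, was lower (34.7 and 32.7 to 27.4 and 26.5 RPKM).

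Genes of the B-cell surface, of receptor signalling and of antigen presentation fell as groups, and transcription factors less clearly so. Of 28 surface antigens with at least 1 RPKM, 25 were lower (89.3%, beside 43.6% of all genes), 16 of them by 2-fold (beside 8.01% of all genes), and 3 were higher, with a median of −1.34. These include genes under 1 RPKM with JQ1, TNFRSF17 and CD84 among them, which passed the filter only through DMSO and were bound to be lower. Of 36 genes of antigen receptor signalling, 25 were lower (69.4%), 11 of them by 2-fold, and 7 were higher, with a median of −0.73. SLA and DOK3, under 1 RPKM with JQ1, were bound to be lower in the same way. Of 19 genes of MHC class II presentation, 17 were lower and 2 higher (−0.58), and of 36 transcription factors of B cells 19 were lower (52.8%, beside 43.6% of all genes) and 8 higher (22.2%, beside 29.5%), with a median of −0.26. HLA-DOB of the former and IRF8 of the latter were bound to be lower too. A count without genes bound in this way is not given for these lists. The 4 medians stand beside −0.07 for all genes, and all were below 0 under each alternative. Their size was less stable, since with genes of at least 5 RPKM only the surface antigens were at −0.76 and receptor signalling at −0.43, and without DMSO library 2 the transcription factors were at −0.11.

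Among the surface antigens, targets of antibodies and cell therapies were included. MS4A1, which encodes CD20, went from 96.7 and 109 RPKM with DMSO to 38.6 and 35.4 with JQ1 (−1.47), and CD22, an inhibitory lectin, from 6.16 and 7.08 to 3.02 and 2.99 RPKM (−1.11). CD84, of the SLAM family, went from 2.19 and 2.89 to 0.0891 and 0.0898 RPKM (−3.80). The receptor chains themselves moved less, CD79A from 313 and 296 to 173 and 185 RPKM (−0.76) and CD79B at −0.28. The 3 antigens that were higher were CD38, an ectoenzyme, from 46.0 and 51.4 to 67.5 and 70.7 RPKM (0.50), CD40, a receptor of T-cell help, from 16.6 and 14.8 to 17.4 and 18.2 RPKM (0.18), and CD74, the invariant chain of MHC class II, from 1987 and 1881 to 2063 and 2358 RPKM (0.19).

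Within receptor signalling, adaptors and inhibitors had the deepest falls. LAT2, an adaptor of the membrane, went from 30.7 and 32.1 RPKM with DMSO to 2.54 and 2.30 with JQ1 (−3.64), SLA, which promotes receptor turnover, from 2.38 and 2.47 to 0.153 and 0.0514 RPKM (−3.64), CD72, an inhibitory coreceptor, from 12.4 and 13.6 to 1.77 and 1.74 RPKM (−2.82) and DOK3, an inhibitory adaptor, from 5.74 and 5.85 to 0.753 and 0.777 RPKM (−2.77). The kinases did not share a direction. BLK went from 18.6 and 18.7 to 3.02 and 3.46 RPKM (−2.49), BTK from 104 and 106 to 53.7 and 53.1 RPKM (−0.98) and SYK from 35.4 and 37.7 to 22.7 and 21.9 RPKM (−0.71), all lower. LYN went from 11.9 and 14.3 to 16.8 and 16.7 RPKM (0.35) and FYN from 4.39 and 5.28 to 7.94 and 7.52 RPKM (0.67), both higher. PLCG2, the phospholipase downstream of BTK, went from 36.6 and 39.5 to 51.4 and 50.3 RPKM (0.42), PRKCD, a protein kinase C, from 9.28 and 9.93 to 12.3 and 12.3 RPKM (0.35), and CBLB, a ubiquitin ligase that restrains the receptor, from 5.07 and 6.23 to 10.5 and 9.68 RPKM (0.82). CD81, the most abundant of the list, went from 462 and 441 to 381 and 426 RPKM (−0.16), and overlapped after centring on length.

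The transcription factors divided. IRF8, a factor of germinal center cells, went from 3.76 and 4.21 RPKM with DMSO to 0.388 and 0.368 with JQ1 (−3.09), SPI1, the ETS factor PU.1, from 59.3 and 58.6 to 10.8 and 9.73 RPKM (−2.51), IKZF1, Ikaros, from 28.04 and 35.2 to 13.2 and 12.5 RPKM (−1.29) and XBP1, of the secretory program, from 57.3 and 55.8 to 29.3 and 28.7 RPKM (−0.96). All of these fell beyond the spread of the libraries. ID2, an inhibitor of E proteins, went from 27.9 and 30.0 to 63.1 and 61.8 RPKM (1.11), FOXO1 from 4.59 and 5.96 to 9.01 and 9.23 RPKM (0.78), BACH2, which opposes plasma-cell fate, from 4.19 and 5.57 to 7.73 and 6.87 RPKM (0.57) and FOXP1 from 6.57 and 8.38 to 9.93 and 10.8 RPKM (0.46), all higher. PAX5, the keeper of B-cell identity, had 14.4 and 18.4 RPKM without the drug and 21.6 and 18.2 with it and overlapped, as did ID3, the most abundant of the list (141 and 132 and 141 and 146 RPKM). Both were called higher after centring on length, PAX5 at 0.24 and ID3 at 0.27. In MHC class II, HLA-DOB, a modulator of peptide loading, went from 3.30 and 3.95 to 0.583 and 0.226 RPKM (−2.88), CTSS, the protease that trims the invariant chain, from 18.1 and 21.2 to 5.09 and 5.24 RPKM (−1.91), RFXANK, of the factor that turns these genes on, from 29.9 and 26.1 to 14.6 and 16.5 RPKM (−0.84) and HLA-DQB1 from 32.9 and 33.6 to 18.03 and 20.7 RPKM (−0.77). HLA genes resemble each other, and their reads are uncertain. IFI30, a lysosomal thiol reductase, rose from 2.42 and 2.16 to 4.25 and 3.68 RPKM (0.77).

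Genes of entry into S phase and of DNA replication were mostly lower, in small steps. Of 23 G1 cyclins, kinases and inhibitors, 18 were lower and 1 higher, with a median of −0.46. Of 52 DNA replication genes, 37 were lower and 6 higher (−0.37), 2 of them lower by 2-fold, and the median was −0.21 after centring on length. Of 50 genes of mitosis, 25 were lower and 7 higher (−0.15), near the 43.6% lower of all genes, and the median was −0.07 after scaling or centring. CCND3, the cyclin D of mature B cells, went from 129 and 119 RPKM with DMSO to 55.0 and 57.2 with JQ1 (−1.14), the phosphatase CDC25A from 16.9 and 20.1 to 9.62 and 9.06 RPKM (−0.98), and the factors E2F2 and E2F8 from 17.1 and 19.2 to 9.55 and 9.79 RPKM (−0.90) and from 9.97 and 13.5 to 6.04 and 4.81 RPKM (−1.10). CDK4, the most abundant of that list, went from 234 and 226 to 169 and 166 RPKM (−0.46), and the single higher gene was the inhibitor CDKN2D (20.9 and 19.99 to 30.5 and 29.7 RPKM, 0.55).

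Among replication genes, POLE2, an accessory subunit of polymerase epsilon, went from 9.42 and 10.2 RPKM with DMSO to 3.73 and 3.22 with JQ1 (−1.47), UHRF1, which guides maintenance of DNA methylation, from 88.3 and 108 to 44.6 and 48.3 RPKM (−1.08), GINS3, of the helicase, from 8.11 and 9.04 to 4.47 and 4.15 RPKM (−0.98) and MCM5, a motor subunit of it, from 87.5 and 86.3 to 49.9 and 51.3 RPKM (−0.78). GINS2 was the most abundant (386 and 349.7 to 266 and 254 RPKM, −0.50). The rises were smaller, and the largest were ORC4, of the origin complex, from 4.00 and 4.47 to 5.45 and 5.24 RPKM (0.33), and TIMELESS, of the fork protection complex, from 26.6 and 29.6 to 35.7 and 34.5 RPKM (0.32). In mitosis, FOXM1, a factor that drives these genes, went from 38.6 and 39.0 to 16.5 and 16.7 RPKM (−1.22), UBE2C, a ubiquitin-conjugating enzyme of the anaphase-promoting complex, from 327 and 297 to 173 and 180.2 RPKM (−0.82) and the kinase PLK1 from 104 and 104 to 74.1 and 77.2 RPKM (−0.46). ANLN, of the cleavage furrow, went up from 10.3 and 12.6 to 16.5 and 14.9 RPKM (0.45), and DLGAP5, of the spindle, from 23.8 and 23.9 to 27.97 and 30.1 RPKM (0.29).

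Genes that make ribosomes and nucleotides fell, and genes of the ribosome itself did not. Of 55 ribosome biogenesis genes, 37 were lower and 5 higher (67.3% and 9.09%, beside 43.6% lower and 29.5% higher of all genes), with a median of −0.30 and 1 fall of 2-fold, that of GAR1, of the particles that modify RNA (64.0 and 65.6 to 28.9 and 30.4 RPKM, −1.12). MRTO4 went from 57.3 and 54.6 to 31.8 and 33.9 RPKM (−0.77), WDR74 from 52.9 and 49.7 to 29.8 and 31.3 RPKM (−0.75) and the helicase DDX56 from 61.6 and 58.4 to 37.2 and 37.9 RPKM (−0.67). The most abundant, NPM1, was higher (599 and 631 to 669.8 and 689 RPKM, 0.14), and so was BMS1, a GTPase of the small subunit (9.25 and 11.4 to 13.0 and 13.6 RPKM, 0.37). Of 84 cytosolic ribosomal protein genes, 42 were higher, 2 lower and 40 overlapped, with a median of 0.15. These genes are short, and DMSO library 2 lay below DMSO library 1 by a median log2 of −0.27 over the same 84 genes, so the rise is smaller than a difference between libraries of 1 sample. It was 0.22 after scaling and 0.24 after centring on length, and without DMSO library 2 it was 0.03. The largest were RPL12 (3724 and 3107 to 4842 and 4826 RPKM) and RPL28 (315 and 250.1 to 395 and 417 RPKM), and the 2 lower genes were RPL39L (152 and 124 to 92.4 and 97.4 RPKM) and RPL7L1 (43.4 and 46.9 to 37.7 and 34.8 RPKM).

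Of 33 genes of nucleotide and one-carbon synthesis, 27 were lower and 3 higher (81.8% and 9.09%, against 43.6% and 29.5% of all genes), with a median of −0.33. CTPS2, a CTP synthase, went from 7.45 and 8.48 RPKM with DMSO to 2.32 and 2.43 with JQ1 (−1.70), and MTHFD1L, of the mitochondrial folate cycle, from 25.7 and 27.3 to 10.0 and 10.2 RPKM (−1.38). The 2 forms of IMP dehydrogenase, the rate-limiting step to guanine nucleotides, moved apart, with IMPDH1 going from 33.1 and 30.8 to 14.6 and 16.0 RPKM (−1.06) and IMPDH2 from 246 and 242 to 396 and 429 RPKM (0.76). IMPDH2 was the more abundant form in all 4 libraries. The nucleoside diphosphate kinase NME1 went from 543 and 492 to 245 and 239 RPKM (−1.10), while its neighbor NME2 had 841 and 742 RPKM without the drug and 771 and 795 with it and overlapped, though it was called higher after centring on length (0.18). ODC1, the first enzyme of polyamine synthesis, was higher (195 and 188 to 326 and 306 RPKM, 0.72), as was SHMT1, of the cytosolic folate cycle (9.73 and 10.2 to 11.9 and 12.4 RPKM, 0.29).

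Some genes of cell movement, which the study set out from, were lower and others higher. ARHGEF6, an exchange factor of RAC1 and CDC42, went from 14.0 and 16.0 to 3.02 and 3.06 RPKM (−2.26), DOCK8, an exchange factor of CDC42 in lymphocytes, from 7.24 and 9.33 to 2.74 and 2.63 RPKM (−1.59) and ARHGAP15, which inactivates RAC1, from 35.6 and 36.0 to 14.8 and 14.4 RPKM (−1.29). MYO1G, a membrane-tethered myosin of blood cells, fell too (2.05 and 2.08 to 0.413 and 0.34 RPKM, −2.19). MYL12A, a light chain of nonmuscle myosin, and CFL1, the actin-severing protein cofilin, were higher, from 92.4 and 83.2 to 132 and 124 RPKM (0.54) and from 1705 and 1588 to 2144 and 2365 RPKM (0.45).

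Of 18 homing and confinement receptors, 11 were lower and 5 higher (61.1% and 27.8%, beside 43.6% lower and 29.5% higher of all genes), and the median of −0.22 was −0.34 without DMSO library 1, −0.44 with no filter and −0.13 after centring. The integrin chains ITGB2 and ITGA4 went from 2.63 and 2.30 to 0.432 and 0.663 RPKM (−1.98) and from 8.66 and 11.4 to 4.04 and 3.28 RPKM (−1.43), and LPAR5, a lysophosphatidic acid receptor, from 1.98 and 1.81 to 0.863 and 0.785 RPKM (−1.11). The chemokine receptor CCR7 was higher (68.5 and 68.9 to 95.9 and 98.4 RPKM, 0.50), as were ITGB1 (6.55 and 8.42 to 11.6 and 9.96 RPKM, 0.52), the G-protein subunit GNAI2 (68.9 and 68.0 to 92.1 and 101 RPKM, 0.50) and the selectin ligand SELPLG (1.03 and 1.23 to 2.19 and 2.21 RPKM, 0.91). CXCR4, the most abundant, had 271 and 293 RPKM without the drug and 279 and 263 with it and overlapped.

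In the RAS and ERK pathway, 10 of 26 genes were higher and 11 lower (38.5% and 42.3%, beside 29.5% and 43.6% of all genes), and the median of −0.02 turned to 0.07 after scaling and 0.02 after centring on length. This median was 0.13 without DMSO library 2 and −0.13 without DMSO library 1. MAPK3, which encodes ERK1, went from 23.2 and 21.8 RPKM with DMSO to 4.39 and 5.001 with JQ1 (−2.24), and the ETS factor ETV4, an output of the pathway, from 4.63 and 4.62 to 0.445 and 0.561 RPKM (−2.97). EGR2 went from 2.22 and 2.65 to 0.817 and 0.667 RPKM (−1.59) and the phosphatase DUSP2 from 0.839 and 1.17 to 0.365 and 0.294 RPKM (−1.36). Other outputs passed the filter only through JQ1 and were bound to be higher, FOS from 0.603 and 0.514 to 2.02 and 1.87 RPKM (1.64), EGR1 from 0.379 and 0.353 to 1.14 and 1.07 RPKM (1.37) and PHLDA1 from 0.45 and 0.302 to 1.03 and 1.10 RPKM (1.29). RRAS2, a GTPase close to RAS, was higher as well (9.95 and 11.6 to 18.03 and 18.1 RPKM, 0.74), and the most abundant gene, MAP2K2, overlapped (83.9 and 70.6 and 81.9 and 96.9 RPKM) and was called higher after centring (0.42).

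In the PI3K and AKT pathway, 13 of 30 genes were higher and 11 lower, and the median of 0.10 turned to −0.05 when only genes of at least 5 RPKM were kept and to −0.05 without DMSO library 1. Without DMSO library 2 this median was 0.29. The kinases PIM1 and PIM2 were higher, from 25.1 and 24.7 to 35.9 and 33.7 RPKM (0.48) and from 111 and 113 to 153 and 158 RPKM (0.47), as was GSK3B (3.73 and 5.35 to 7.60 and 6.93 RPKM, 0.67). TRIB3, a pseudokinase, was lower (24.1 and 19.7 to 6.54 and 7.42 RPKM, −1.64), as were the lipid phosphatase INPP5D (40.0 and 43.1 to 24.0 and 25.2 RPKM, −0.75) and RPTOR of the mTOR complex (5.09 and 5.66 to 3.26 and 3.1996 RPKM, −0.72). Of 32 NF-kB genes, 16 were lower and 8 higher (−0.12), not far from the 43.6% and 29.5% of all genes, and the median was −0.04 after scaling. IRAK1, the kinase that relays toll-like receptor signals and the most abundant of the list, went from 133 and 129 to 28.8 and 30.2 RPKM (−2.15). The lymphotoxin genes LTA and LTB went from 3.91 and 4.45 to 0.689 and 0.733 RPKM (−2.40) and from 12.6 and 12.9 to 5.02 and 4.78 RPKM (−1.36), and the BAFF receptor TNFRSF13C from 1.94 and 2.04 to 0.395 and 0.663 RPKM (−1.73). MAP3K14, the kinase of the noncanonical branch, rose from 5.25 and 4.99 to 9.66 and 7.82 RPKM (0.76), and the subunit REL from 1.51 and 1.36 to 2.62 and 1.75 RPKM (0.57).

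Among 21 cytokine receptor and JAK-STAT genes, 8 were higher and 9 lower (38.1% and 42.9%, against 29.5% and 43.6% of all genes), and the median of −0.01 turned to 0.07 after scaling and 0.06 after centring. IL7R, the receptor of interleukin 7, went from 9.78 and 12.5 RPKM with DMSO to 2.18 and 1.74 with JQ1 (−2.45) and the common gamma chain IL2RG from 44.7 and 49.3 to 19.5 and 21.4 RPKM (−1.20). JAK1 went from 23.2 and 28.3 to 48.7 and 47.4 RPKM (0.90), STAT3 from 9.13 and 10.3 to 18.6 and 18.4 RPKM (0.92) and the inhibitor SOCS1 from 27.8 and 27.8 to 42.6 and 43.3 RPKM (0.63). STAT5A went down from 1.69 and 1.93 to 0.781 and 0.842 RPKM (−1.07). Of 30 interferon-stimulated genes, 18 were lower, 9 of them by 2-fold, and 6 higher (−0.42), where 8.01% of all genes were 2-fold lower. IFITM1, IFITM2 and IFITM3, which block the entry of viruses and resemble each other closely enough to make their split uncertain, went from 30.3 and 30.7 to 3.26 and 3.37 RPKM (−3.16), 114 and 105 to 14.7 and 15.4 RPKM (−2.85) and 18.7 and 20.1 to 2.30 and 3.15 RPKM (−2.79). TRIM22, an antiviral ubiquitin ligase, fell from 15.6 and 19.0 to 3.04 and 2.87 RPKM (−2.51), and IRF7, the factor that amplifies type I interferon, rose from 12.5 and 11.7 to 35.8 and 37.9 RPKM (1.60). SAMHD1, which depletes nucleotides that viruses need, rose as well, from 11.7 and 14.2 to 21.05 and 22.0 RPKM (0.72).

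Regulators of cell death and stress moved in both directions. Of 15 BCL2 family genes, 5 were higher and 6 lower, close to the 29.5% and 43.6% of all genes, and the median of −0.03 turned to 0.04 after scaling and 0.11 after centring. Among the protectors, MCL1 went from 62.2 and 71.4 RPKM with DMSO to 109 and 109.8 with JQ1 (0.71), BCL2 from 19.0 and 22.9 to 28.3 and 24.5 RPKM (0.33) and BCL2L1, which encodes BCL-XL, from 30.1 and 30.0 to 14.6 and 15.2 RPKM. Among the promoters of death, BMF went from 0.658 and 0.584 to 1.26 and 1.29 RPKM (0.93), passing the filter only through JQ1, BID from 10.3 and 10.3 to 4.48 and 4.71 RPKM (−1.14), BAD from 55.6 and 47.9 to 33.9 and 36.8 RPKM (−0.55) and BBC3, known as PUMA, from 10.4 and 10.1 to 7.85 and 5.95 RPKM (−0.56). Of 22 genes that p53 activates, 11 were higher and 10 lower, with a median of 0.03 that was −0.30 with no filter on low values. TP53INP1 (1.48 and 1.71 to 4.84 and 4.46 RPKM), the antiproliferative BTG2 (37.3 and 38.6 to 86.8 and 80.0 RPKM), GADD45B (8.31 and 8.195 to 17.0 and 17.1 RPKM) and GADD45A (6.11 and 7.54 to 13.1 and 13.1 RPKM) were higher, at log2 ratios from 0.93 to 1.49. The death receptor FAS (1.11 and 1.13 to 0.435 and 0.366 RPKM), the nuclease AEN (14.2 and 14.9 to 7.20 and 6.89 RPKM), FDXR (12.4 and 11.6 to 6.14 and 6.74 RPKM) and the cell cycle inhibitor CDKN1A (21.02 and 19.9 to 13.4 and 13.1 RPKM) were lower, at ratios from −1.29 to −0.62.

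Of 24 genes of the integrated stress response, 17 were lower and 5 higher (−0.29), or 70.8% and 20.8%, beside 43.6% lower and 29.5% higher of all genes. CHAC1, which degrades glutathione, went from 3.12 and 2.9999 RPKM with DMSO to 1.62 and 1.59 with JQ1 (−0.89), the amino acid transporter SLC7A5 from 75.1 and 80.0 to 47.7 and 46.3 RPKM (−0.72) and PHGDH, the entry to serine synthesis, from 70.7 and 64.9 to 38.2 and 42.6 RPKM (−0.75), while asparagine synthetase ASNS rose from 61.6 and 60.4 to 86.9 and 89.3 RPKM (0.53). Of 26 chaperones, 14 were lower and 6 higher (53.8% and 23.1%), with a median of −0.17. This median was −0.08 after scaling, −0.05 after centring on length and −0.24 without DMSO library 1. The falls included residents of the endoplasmic reticulum, CALR from 232 and 245 to 119 and 134 RPKM (−0.91), PDIA6 from 56.2 and 62.4 to 36.7 and 35.9 RPKM (−0.71) and HSPA5 from 64.9 and 70.5 to 47.7 and 45.7 RPKM (−0.54). HSPA1A and HSPA1B, near-identical genes of inducible HSP70 whose split is uncertain, were both higher (1.30 and 1.14 to 2.61 and 1.99 RPKM and 12.03 and 10.9 to 16.8 and 19.3 RPKM).

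In metabolism, few genes passed 2-fold. Of 25 glycolysis genes, 12 were lower and 5 higher, near the 43.6% and 29.5% of all genes, and the median of −0.11 was −0.03 after scaling and −0.23 without JQ1 library 2. TPI1, an enzyme of the pathway, was lower (517 and 535 to 361 and 380.4 RPKM, −0.50), and the aldolase gene ALDOC was higher (16.6 and 19.0 to 32.9 and 35.6 RPKM, 0.94). Of 78 oxidative phosphorylation genes, 34 were lower, the same 43.6% as of all genes, and 15 higher, and the median of −0.07 turned to 0.01 after scaling and after centring. NDUFC1, of complex I, was lower by more than 2-fold (32.9 and 31.2 to 11.04 and 12.6 RPKM, −1.43). Of 28 cholesterol synthesis genes, 12 were lower and 7 higher, and the median of −0.07, which equals that of all genes, turned to 0.00 after scaling and 0.03 after centring. TM7SF2, a sterol reductase, was higher by 2-fold (13.2 and 11.2 to 26.8 and 33.1 RPKM, 1.29). Of 4 genes of TXNIP, which restrains glucose uptake, and the related arrestin-domain proteins, 3 were higher. TXNIP went from 38.1 and 43.5 to 70.4 and 66.1 RPKM (0.74), ARRDC3 from 5.18 and 5.89 to 12.6 and 12.7 RPKM (1.18) and ARRDC1 from 5.09 and 3.75 to 7.29 and 7.86 RPKM (0.76), and ARRDC2 was lower (7.20 and 8.05 to 5.82 and 5.95 RPKM, −0.37).

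**Figure D4:**
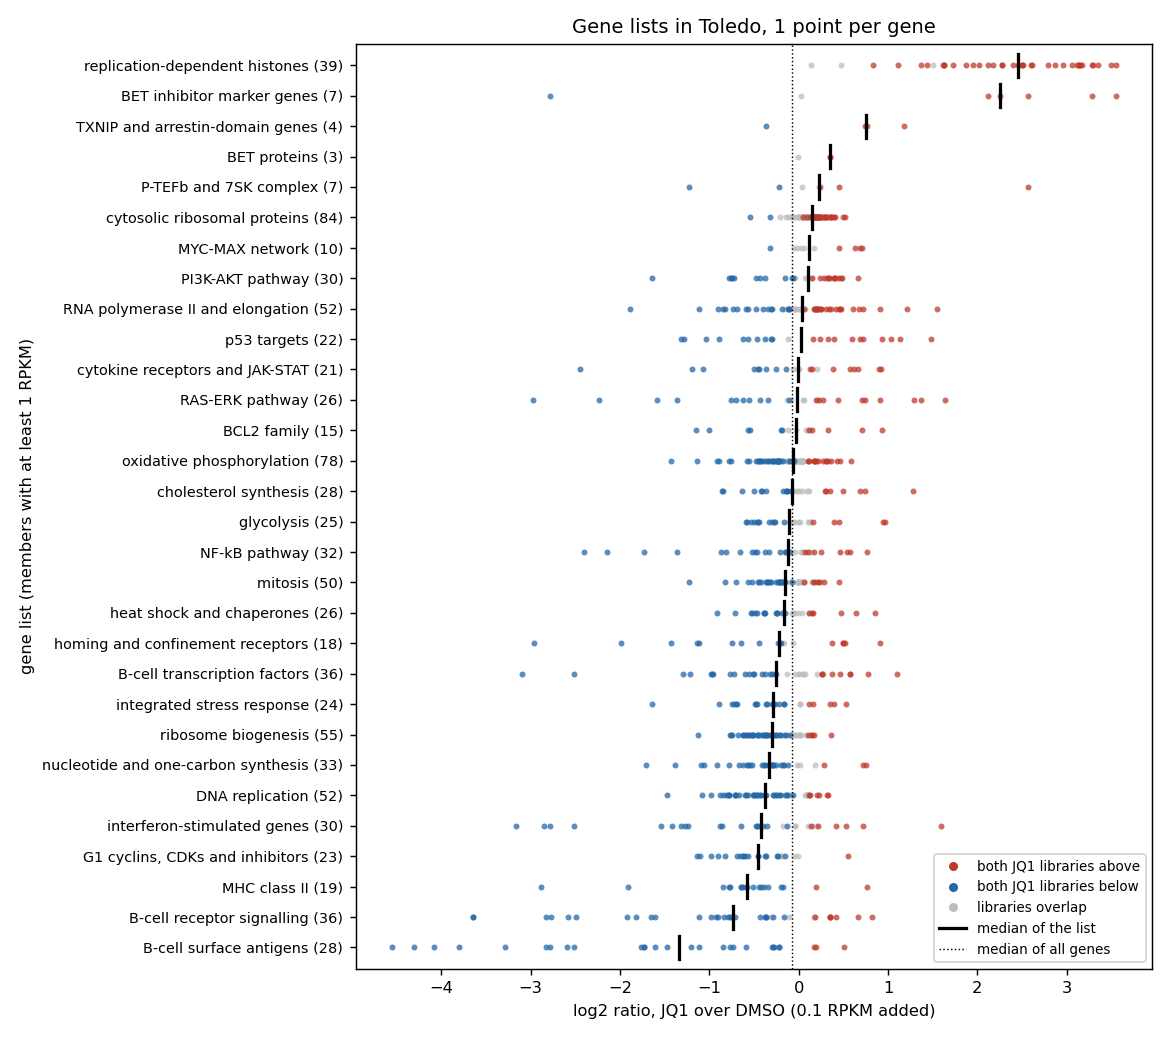
Log2 ratio of JQ1 over DMSO for the members of gene lists with at least 1 RPKM in Toledo, 1 point per gene, red where a gene was called higher, blue where it was called lower and grey where libraries overlapped, with a bar at the median of each list and a dotted line at the median of all genes (−0.07). The medians run from 2.45 for the replication-dependent histones to −1.34 for the B-cell surface antigens.

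The transcript table showed shifts between forms of the same gene. Of 17800 transcripts with at least 1 RPKM, 4487 were higher (25.2%) and 6645 lower (37.3%). Among 4562 genes with more than 1 such transcript, 1057 had 1 form higher and another lower, and for 147 both changes were at least 2-fold. How reads that fit several forms were assigned is not given in the sources used here, so these values are less certain than those of genes. The largest opposite changes were those of RINL, XXYLT1, NDUFAF5, IGJ, PFKM and WASF1, and that of IGJ had by far the most reads.

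For IGJ, the form of wider genomic span (chromosome 4, 70655541 to 70676903) went from 7.67 and 9.66 to 126 and 119 RPKM and the form of narrower span (70655541 to 70666905) from 602 and 613 to 83.4 and 76.8 RPKM. In both DMSO libraries the second had the higher level, and in both JQ1 libraries the first had, while the gene as a whole went from 720.4 and 732 to 271 and 264 RPKM (−1.44). RINL, an exchange factor of RAB5 and RAB22, had 1 form going from 0.0743 and 0 to 1.78 and 1.95 RPKM and another from 3.51 and 3.56 to 0.0201 and 0.0405 RPKM. For WASF1, which activates actin branching, the forms went from 0.0176 and 0 to 0.592 and 2.10 RPKM and from 2.73 and 2.08 to 0.0456 and 0.023 RPKM. For PFKM, the muscle type of phosphofructokinase, they went from 0.378 and 0.606 to 7.54 and 4.99 RPKM and from 2.51 and 10.5 to 0.086 and 0.065 RPKM, and the latter differed widely between the DMSO libraries. The forms of NDUFAF5, an assembly factor of complex I, went from 0 and 0 to 2.24 and 2.51 RPKM and from 4.39 and 3.73 to 0.348 and 0.15 RPKM, and those of XXYLT1, a xylosyltransferase that modifies Notch, from 0 and 0.0288 to 2.07 and 1.68 RPKM and from 0.823 and 1.99 to 0 and 0 RPKM.

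The changes in Toledo were set beside those in SU-DHL-5, without a test of the difference. Of the 9646 genes, 8718 also had at least 1 RPKM in SU-DHL-5. Among these, 140 were 2-fold higher in Toledo, 155 in SU-DHL-5 and 66 in both, which is 47.1% of the Toledo genes and 42.6% of the SU-DHL-5 genes. There were 501 genes 2-fold lower in Toledo, 398 in SU-DHL-5 and 260 in both, 51.9% and 65.3% of each. Called genes of any size had the same direction more often than the opposite, with 2124 higher in both, 2556 lower in both, 179 higher in Toledo alone and lower in SU-DHL-5, and 427 the reverse. The histone genes had a median of 2.61 in Toledo and 2.56 in SU-DHL-5 over the 25 genes above 1 RPKM in both, and the surface antigens −1.11 and −1.06 over 23. Over all 8718 genes the medians were −0.05 in Toledo and 0.03 in SU-DHL-5, so opposite signs near 0 say little of a list. Medians had opposite signs for homing receptors (−0.44 and 0.03), ribosomal proteins (0.15 and −0.01) and glycolysis (−0.11 and 0.10). They also did for 5 lists whose sign in Toledo turned with the scaling, cholesterol synthesis (−0.07 and 0.30), oxidative phosphorylation (−0.07 and 0.07), RAS and ERK (−0.08 and 0.02), the BCL2 family (−0.03 and 0.05) and JAK-STAT (−0.01 and 0.05).

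The 928 genes with at least 1 RPKM in Toledo and not in SU-DHL-5 fell by 2-fold more often than the genes of both lines. Of these, 272 (29.3%) were 2-fold lower and 46 (4.96%) 2-fold higher, against 501 (5.75%) and 140 (1.61%) of the 8718 genes of both lines. Genes of Toledo alone are lower in level, and low genes fell more often, so the shares were compared within classes of DMSO level, a comparison chosen after seeing the data. Between 1 and 2 RPKM, 34.0% of the genes of Toledo alone were 2-fold lower and 11.9% of the genes of both lines. Between 2 and 5 RPKM the shares were 28.5% and 7.66%, between 5 and 20 RPKM 33.5% and 5.31%, and from 20 RPKM on 31.3% and 3.84%, the last over 48 and 2839 genes. For rises the shares in the same classes were 0.829% and 5.49%, 1.44% and 1.90%, 1.83% and 0.780%, and 2.08% and 0.493%, and those of Toledo alone rest on 3, 4, 3 and 1 genes. The counts of 46 and 140 also hold genes below 1 RPKM in DMSO, which passed the filter only through JQ1. The gap for falls was present in every class, and whether other properties of these genes account for it was not tested.

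**Figure D5:**
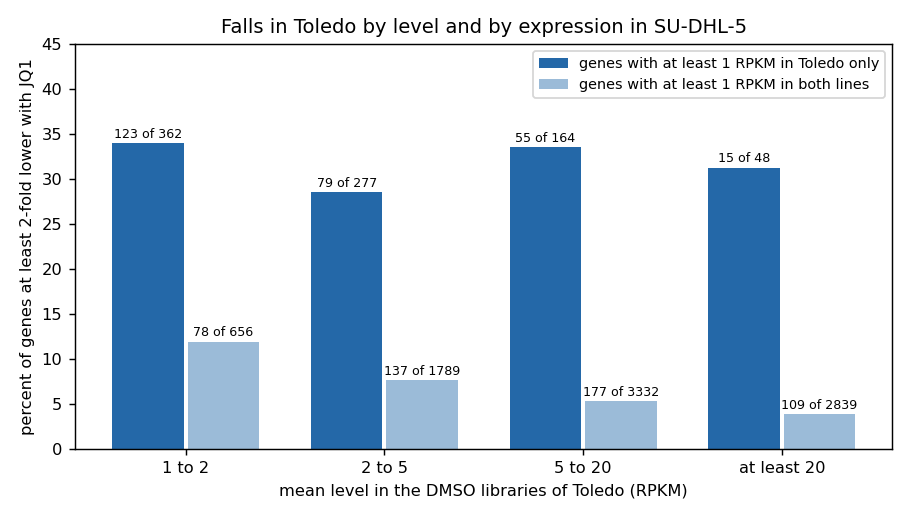
Percent of genes at least 2-fold lower with JQ1 in Toledo (vertical axis) by their mean level in the DMSO libraries in RPKM (horizontal axis), for genes with at least 1 RPKM in Toledo only (dark bars) and in both lines (light bars), with the number of genes above each bar. The dark bars lie between 28.5% and 34.0% and the light bars between 3.84% and 11.9%.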

How the data were processed

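The authors made TruSeq stranded mRNA libraries and trimmed the paired reads. RPKM values of genes and of transcripts were deposited by the authors and used here. The submitters' processing notes list CASAVA 2.0 and the builds GRCh38 and hg38, and the aligner, the counting and the annotation are not given in the sources used here. Mapped reads and feature lengths were recovered from the RPKM values as the numbers that gave whole reads, and no count model was fitted. The 2 libraries of a sample were averaged (n = 1), so no test or p-value is given. Called genes, ratios, lists and length centring were computed with Python 3.11.15, numpy 2.4.6, pandas 2.3.3 and scipy 1.17.1, and the steps were tested on simulated data. Figures were drawn with matplotlib 3.10.9.

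Members and lists were chosen with earlier results of these data known. Named genes were taken from the 12 steepest rises and 12 deepest falls between nearest libraries among genes matched to RefSeq as protein-coding, up to 4 called genes each way and the most abundant gene of each of 31 lists, MYC, RHOA, HEXIM1, SERPINI1, IQGAP3, BRD2 and BRD3, 6 genes with opposite transcripts, genes 2-fold opposite between the lines, and the 5 highest genes. Other list members were named after their values were seen, to show a role. Alternatives varied the pseudocount (0.01 and 1 RPKM), the filter (none and 5 RPKM), the scaling, length centring, the table and the libraries left out.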

Additional observations from a re-analysis of the deposited data

Results flagged for a closer look

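Of the 8718 genes with at least 1 RPKM in both lines, 4 moved by at least 2-fold in opposite directions, each with both JQ1 libraries on 1 side of both DMSO libraries in Toledo and on the other side in SU-DHL-5. All 4 were higher in Toledo and lower in SU-DHL-5, and 0 genes did the reverse. The difference between the lines was not tested for any of them, since each line had 1 sample per condition.

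JUP, which encodes the junction protein plakoglobin, went from 18.1 and 17.995 to 60.6 and 67.0 RPKM in Toledo (log2 ratio 1.81), while SU-DHL-5 had 30.0 and 28.5 RPKM under DMSO and 9.97 and 9.09 under JQ1 (−1.61). AIFM2, an oxidoreductase that protects membranes from lipid peroxidation, went from 0.975 and 0.853 to 2.12 and 2.12 RPKM in Toledo (1.13, with a DMSO mean below 1 RPKM, so that it passed the filter there only through JQ1) while SU-DHL-5 had 9.91 and 9.59 RPKM under DMSO and 3.15 and 3.05 under JQ1 (−1.62). KIAA0226L (RUBCNL in RefSeq), a factor of autophagosome maturation, went from 96.4 and 108 to 271 and 251 RPKM in Toledo (1.35) while SU-DHL-5 had 5.74 and 5.62 RPKM under DMSO and 2.77 and 2.70 under JQ1 (−1.03). RHOC, a small GTPase, went from 1.57 and 1.82 to 4.63 and 3.59 RPKM in Toledo (1.23) while SU-DHL-5 had 5.38 and 5.56 RPKM under DMSO and 2.17 and 2.49 under JQ1 (−1.20). The order of the lines reversed with JQ1 for JUP and RHOC, while for AIFM2 the lines ended closer together and for KIAA0226L farther apart.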

How the results depend on the processing

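The numbers of genes called higher and lower stayed within 1.5 times of 2844 and 4207 under every alternative that was run. The 186 genes higher by 2-fold became 87 with a pseudocount of 1 RPKM and 93 with a filter of 5 RPKM, and the 773 genes lower by 2-fold became 470 and 356, and 1291 with no filter. With at least 1 RPKM in each condition, a filter added after seeing the data, they became 121 and 438. These follow from the construction, since a larger pseudocount damps low genes and a filter changes how many genes are counted. The median log2 ratio of all genes, −0.07, was 0.00677 after scaling and 0.00717 after centring on length, which set it near 0 by construction. Leaving out 1 library at a time gave 3144 to 4170 genes higher, 4519 to 5419 lower, 180 to 231 higher by 2-fold, 757 to 818 lower by 2-fold and a median from −0.12 to −0.02. No paired analysis was possible because a single sample stood for each condition.

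Of 342 values of list medians under alternatives, 1 of them added after seeing the data, 74 moved by more than the spread between the libraries, and of 325 values of named genes 34 did. Of the 31 genes recomputed under alternatives, none that was called changed sign, while 61 of all called genes went from lower to higher after centring. Some list medians near 0 changed sign, as given beside each. With 1 sample per condition, differences between cultures were not measured. Depth limits low genes most, since 156 of the 186 and 707 of the 773 genes had at least 100 reads in a condition and the rest had fewer.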

Other observations

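Toledo expresses further genes of early B-cell development, which were named after their values were seen. VPREB3, a partner of the surrogate light chain, went from 312 and 278 RPKM with DMSO to 21.5 and 23.2 with JQ1 (−3.72), and DNTT, the polymerase that adds bases at immunoglobulin gene joints, from 25.7 and 29.1 to 6.57 and 5.89 RPKM (−2.12). Both followed IGLL1 and VPREB1 in direction. The recombinase genes did not, with RAG1 at 23.1 and 30.1 RPKM without the drug and 31.4 and 25.5 with it, overlapping, and RAG2 at 18.3 and 22.1 and 22.3 and 22.2, higher by 0.14 on the log2 scale. MME, the antigen CD10 of precursor and germinal center cells, went from 28.4 and 33.5 to 17.6 and 16.9 RPKM (−0.84).

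Among abundant genes outside the lists, DCXR, a reductase of dicarbonyls and L-xylulose, had an unusual rise, from 150.2 and 116 RPKM with DMSO to 620.1 and 659 with JQ1 (2.26). It was singled out after its values were seen, and the DMSO libraries differed from each other by less than either differed from the JQ1 libraries.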
